A study of Mus musculus with 14 samples.

Results

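Gene expression was compared between 2-cell mouse embryos made by somatic cell nuclear transfer (SCNT) that overexpressed the histone demethylase Kdm4d and plain SCNT embryos of the same stage. The comparison holds 4 of the 14 libraries of the series, 2 in each group, and was made over all genes as log2(FPKM + 1), where FPKM is a count of fragments scaled to transcript length and to the number of mapped fragments. In SCNT the nucleus of a body cell, here a cumulus cell from around the oocyte, replaces the nucleus of an oocyte. By the strain labels both groups share donor cells of (C57BL/6J x CAST/EiJ) F1 mice and recipient oocytes of B6D2F1 mice, whereas the growth protocol names adult BDF1 females as the source of cumulus cells. Each plain SCNT library was a pool of 40 embryos and each Kdm4d library a pool of 25. A pair of further groups, with 2 libraries of 25 embryos each, served as reference: SCNT embryos of the same donor and oocyte strains that overexpressed a mutant Kdm4d, and embryos fertilised in vitro (IVF) from C57BL/6J oocytes and CAST/EiJ sperm. The sources used here do not give how overexpression was achieved, which mutation the mutant carried or the hour of collection. The labels do not say that the libraries of a group came from separate experiments. The p-values rest on the spread between replicate libraries, shared over all 7 groups of the series, and this spread may be technical.

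Kdm4d removes methyl groups from lysine 9 of histone H3, and trimethylated H3K9 is the mark of heterochromatin, the closed and transcriptionally silent part of the genome. In the mouse the embryo's own genome is switched on broadly at the 2-cell stage, when stored oocyte transcripts are cleared. Short-lived transcripts then appear, such as those of Zscan4 genes and of some Obox and PRAME genes. In an SCNT embryo this start must be made from the chromatin of a body cell.

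Principal components of the 8 libraries of 2-cell embryos separated all 4 groups. The first component held 57.1% of the variance and placed plain SCNT libraries at -37.9 and -41.6, Kdm4d libraries at 26.1 and 39.9, IVF libraries at 60.1 and 57.97 and mutant libraries at -59.9 and -44.7. The Kdm4d libraries thus lay between plain SCNT and IVF libraries on this component, nearer to the latter. The second component, with 16.9% of the variance, held the libraries of both overexpression groups between -34.1 and -15.3 and those of the other 2 groups between 20.3 and 28.95.

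**Figure D1:**
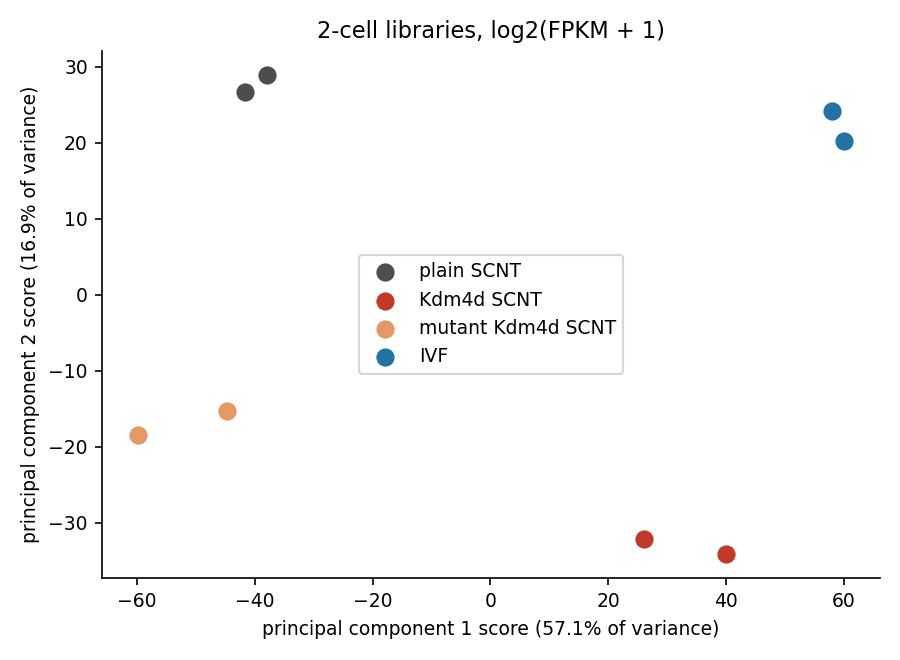
Scores of the 8 libraries of 2-cell embryos on the first 2 principal components of log2(FPKM + 1), one point per library, coloured by group. Kdm4d libraries lie at 26.1 and 39.9 on the horizontal axis, between plain SCNT (-37.9 and -41.6) and IVF libraries (60.1 and 57.97), and both overexpression groups lie below 0 on the vertical axis.

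The libraries were not equal in precision. The file holds no read counts, but the steps between low values gave relative depths of 0.508 and 0.415 for the Kdm4d libraries and 0.813 and 0.871 for the plain SCNT libraries, with the deepest library of the series at 1. Genes listed at 0 numbered 6131 and 6714 in Kdm4d and 4725 and 4716 in plain SCNT libraries. On the log2 scale replicates had an SD of 0.368 in the Kdm4d group and 0.184 in the plain SCNT group. FPKM summed to 291645 and 310349 in Kdm4d libraries and to 187344 and 183002 in plain SCNT libraries, and the values were not rescaled. Genes called higher had a median transcript length of 2566 bases and genes called lower 3432, against 3134 over all genes tested. The part of depth, sum and length in the results below was not tested.

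The targeted gene followed the labels. Gene coordinates are those of mm9. Kdm4d (chromosome 9, 14267025 to 14304926) stood at 0.543 and 0.327 FPKM in the plain SCNT libraries and at 8879 and 2255 in the Kdm4d libraries, a log2 difference of 11.61, SE 0.45, adjusted p = 3.05e-08. It made up 3.04% and 0.727% of the FPKM sum of the Kdm4d libraries, so the 2 pools differed in the transcript's level. In the mutant libraries it stood at 723 and 284 and in IVF libraries at 0.759 and 0.415, and the Kdm4d group was higher than the mutant group by 3.30, SE 0.57, adjusted p = 0.00327. The amounts of the 2 overexpressed transcripts were therefore unequal, and differences between these groups come with that difference in amount.

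Of 13453 genes tested with limma, 2266 were higher in Kdm4d embryos (16.8% of genes tested) and 1594 were lower (11.8%). Every called gene had no overlap between the 2 Kdm4d and the 2 plain SCNT libraries, but so did 65.8% of all genes tested. A difference of at least 2-fold was reached by 1527 of the genes called higher (11.4% of genes tested) and by 803 of those called lower (5.97%). Of the 2266 genes, 1192 (52.6%) were also called higher than in the mutant group. Of the 1594 genes, 481 (30.2%) were also called lower than in the mutant group. Both comparisons use the same Kdm4d libraries. The genes called higher against plain SCNT embryos were mostly expressed genes that became more abundant, with a median level of 9.66 FPKM in plain SCNT and 26.1 in Kdm4d embryos. The genes called lower were weaker, with medians of 4.39 and 1.28 FPKM, and 855 of them lay under 5 FPKM in both groups. Higher genes made up 58.7% of the calls, but 47.6% after quantile normalization (1831 higher, 2019 lower) and 33.3% after scaling each library by its median ratio (1489 higher, 2979 lower), which lowered the median difference of all genes by 0.209 on the log2 scale. Without Kdm4d replicate 2 the counts were 1104 and 582, and without Kdm4d replicate 1 they were 1703 and 922.

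**Figure D2:**
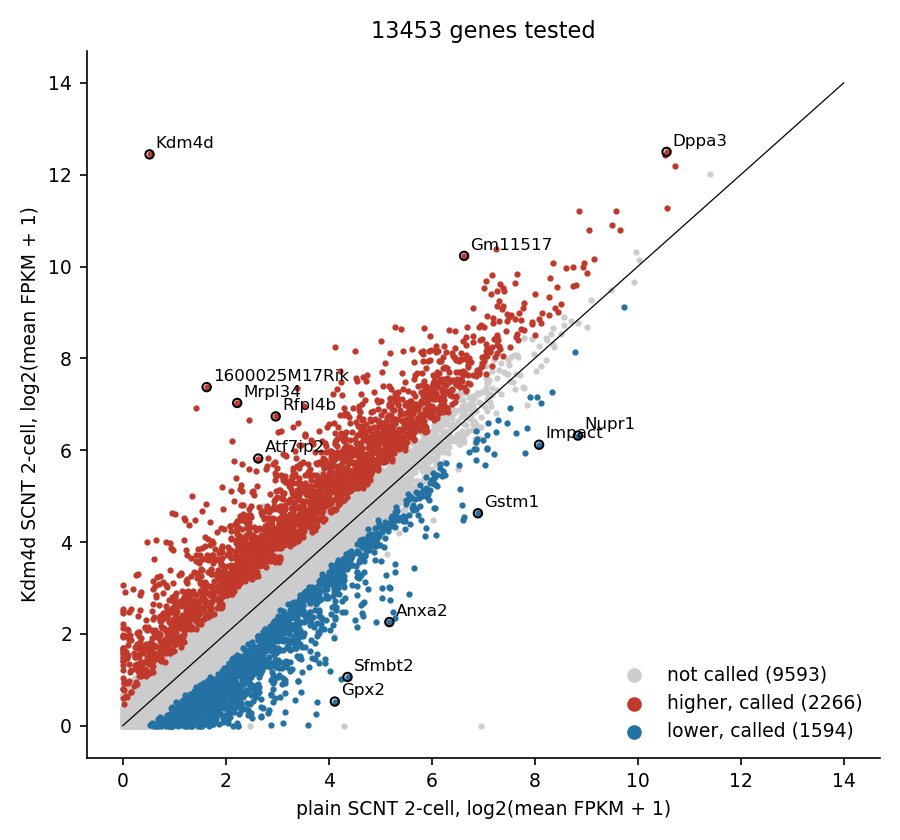
Mean level of each of the 13453 genes tested in plain SCNT (horizontal) and Kdm4d embryos (vertical), both as log2(mean FPKM + 1), with 2266 genes called higher in red, 1594 called lower in blue, the rest in grey and the line of equality in black. Circled genes are named in the text; Kdm4d itself lies at the upper left.

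Among the 12 largest rises were genes at a low level in plain SCNT and mutant embryos and at a high level in Kdm4d and IVF embryos. 1600025M17Rik (chromosome X, 53570785 to 53573841) stood at 2.17 and 2.02 FPKM in plain SCNT libraries and 111 and 218 in Kdm4d libraries (log2 difference 5.67, SE 0.57, adjusted p = 4.68e-05), beside 147 and 148 in IVF and 1.502 and 14.2 in mutant libraries. Rfpl4b (chromosome 10, 38540347 to 38541585), a member of the ret finger protein-like family, went from 5.71 and 7.97 to 135 and 75.98 FPKM (3.72, SE 0.52, adjusted p = 0.000275), with 253 and 269.5 in IVF and 0.327 and 8.83 in mutant libraries. Ugt2b36 (chromosome 5, 87494952 to 87521580), which encodes a UDP-glucuronosyltransferase, went from 0.953 and 0.903 to 22.7 and 24.9 FPKM (3.69, SE 0.25, adjusted p = 5.92e-06), with 30.8 and 29.6 and 2.43 and 5.14 in the same order. For each of these 3 genes the Kdm4d libraries lay above both plain SCNT and both mutant libraries, and the difference from IVF embryos missed the threshold (adjusted p = 0.958, 0.0868 and 0.403). Both Kdm4d libraries of Rfpl4b and Ugt2b36 nonetheless lay below both IVF libraries, while those of 1600025M17Rik lay on either side of them.

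The starts of 2 of these genes and of Gpx2, the called gene with the largest fall, are shown as examples of genes among the 12 largest called rises and falls. The sequences run from 250 bases before to 50 bases after the gene's start, are taken from RefSeq on build GRCm38.p6, and have every CpG in capitals.
1600025M17Rik (chrX:56317358-56317657, forward strand): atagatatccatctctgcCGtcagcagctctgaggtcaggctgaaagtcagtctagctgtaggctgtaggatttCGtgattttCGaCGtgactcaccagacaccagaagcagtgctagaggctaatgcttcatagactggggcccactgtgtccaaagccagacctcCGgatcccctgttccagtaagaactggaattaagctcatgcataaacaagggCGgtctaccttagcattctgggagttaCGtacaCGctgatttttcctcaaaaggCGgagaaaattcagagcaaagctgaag
Rfpl4b (chr10:38821730-38822029, reverse strand): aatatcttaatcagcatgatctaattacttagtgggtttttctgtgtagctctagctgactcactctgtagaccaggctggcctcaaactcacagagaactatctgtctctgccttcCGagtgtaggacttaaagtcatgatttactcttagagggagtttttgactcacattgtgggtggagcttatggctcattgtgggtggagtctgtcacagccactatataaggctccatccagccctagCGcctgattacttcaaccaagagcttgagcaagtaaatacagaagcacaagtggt
Gpx2 (chr12:76795505-76795804, reverse strand): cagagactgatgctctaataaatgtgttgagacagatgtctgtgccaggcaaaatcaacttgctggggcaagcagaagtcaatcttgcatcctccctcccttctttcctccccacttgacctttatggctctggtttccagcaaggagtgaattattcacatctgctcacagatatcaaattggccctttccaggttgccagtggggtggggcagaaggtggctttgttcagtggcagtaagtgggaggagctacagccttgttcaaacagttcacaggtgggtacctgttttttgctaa
The 3 windows hold 9, 2 and 0 CpG dinucleotides, beside a median of 20 over the 10705 tested genes with a matched promoter and of 7 over all 27025 RefSeq promoters of this length. Since a promoter was matched for 79.6% of the genes tested, no comparison of promoter content between called genes and others is given.

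Several of the other large rises went beyond the IVF level and were seen in part with the mutant. Mrpl34 (chromosome 8, 73988825 to 73989652), which encodes a protein of the mitochondrial ribosome, stood at 3.57 and 3.77 FPKM in plain SCNT, 134 and 125 in Kdm4d, 22.4 and 42.1 in mutant and 15.8 and 15.01 in IVF libraries (4.80, SE 0.76, adjusted p = 0.000677 against plain SCNT). Sf3b5 (chromosome 10, 12728256 to 12728989), a subunit of the SF3b splicing complex, stood at 13.7 and 19.09, 306 and 298, 63.7 and 145 and 29.6 and 28.9 in the same order (4.14, SE 0.60, adjusted p = 0.000372). Upf1 (chromosome 8, 72855421 to 72877172), the helicase of nonsense-mediated decay, stood at 2.66 and 4.04, 73.9 and 71.2, 17.8 and 34.1 and 9.44 and 9.596 (4.10, SE 0.72, adjusted p = 0.00133). In all 3 genes the Kdm4d libraries were the highest of the 4 groups with no overlap, and the difference from the mutant group missed the threshold (adjusted p = 0.172, 0.164 and 0.284). For Phlda2 (chromosome 7, 150687453 to 150688429), an imprinted gene that restrains placental growth, Kdm4d and mutant libraries overlapped, with 3.43 and 3.52 FPKM in plain SCNT, 63.4 and 43.6 in Kdm4d, 57.5 and 33.4 in mutant and 18.03 and 18.6 in IVF libraries (3.58, SE 0.36, adjusted p = 4.53e-05). The adaptor subunit gene Ap2s1 went from 1.102 and 1.95 to 40.98 and 21.2 FPKM (3.62, SE 0.85, adjusted p = 0.00694), with 21.2 and 30.9 in mutant libraries, and lost its call without Kdm4d replicate 1 (adjusted p = 0.0788). Active Kdm4d and any other feature shared by both overexpression groups cannot be told apart for such genes in the comparison with plain SCNT embryos.

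A set of placental genes was also high in both overexpression groups, at low levels. These are the prolactin family, cathepsin, trophoblast-specific protein, pregnancy-specific glycoprotein and Ceacam genes that are known from trophoblast and decidua, and the set was put together after their values were seen. Of its 55 members 39 were at 0 in both plain SCNT libraries, and 23 of those had a value above 0 in both Kdm4d libraries. Members of at least 0.5 FPKM numbered 5 and 6 in plain SCNT, 25 and 21 in Kdm4d, 23 and 19 in mutant and 7 and 8 in IVF libraries. The placental cathepsin Ctsj was listed at 0 in both plain SCNT and both IVF libraries, at 5.69 and 3.98 FPKM in Kdm4d and at 5.7 and 4.4 in mutant libraries. Tpbpa, a marker of spongiotrophoblast, was likewise at 0 in plain SCNT and IVF libraries, at 2.88 and 1.59 in Kdm4d and at 2.14 and 2.15 in mutant libraries. Prl3b1, placental lactogen II, was at 0 in plain SCNT, 7.55 and 7.19 in Kdm4d, 8.14 and 6.76 in mutant and 2.58 and 1.14 in IVF libraries. The log2 differences between the Kdm4d and mutant groups were -0.06 for Ctsj, 0.01 for Tpbpa and -0.01 for Prl3b1. Over the 20 tested members they ranged from -1.30 for Prl8a2 to 1.37 for Prl7b1, and Prl7b1 was called higher than in the mutant group. The placenta-abundant imprinted RNA H19 (chromosome 7, 149761437 to 149764051) moved with them, at 0.0188 and 0 FPKM in plain SCNT, 2.55 and 1.87 in Kdm4d, 3.28 and 1.64 in mutant and 0 and 0 in IVF libraries. Whether RNA of another source was present in the 4 overexpression libraries was not tested.

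**Figure D3:**
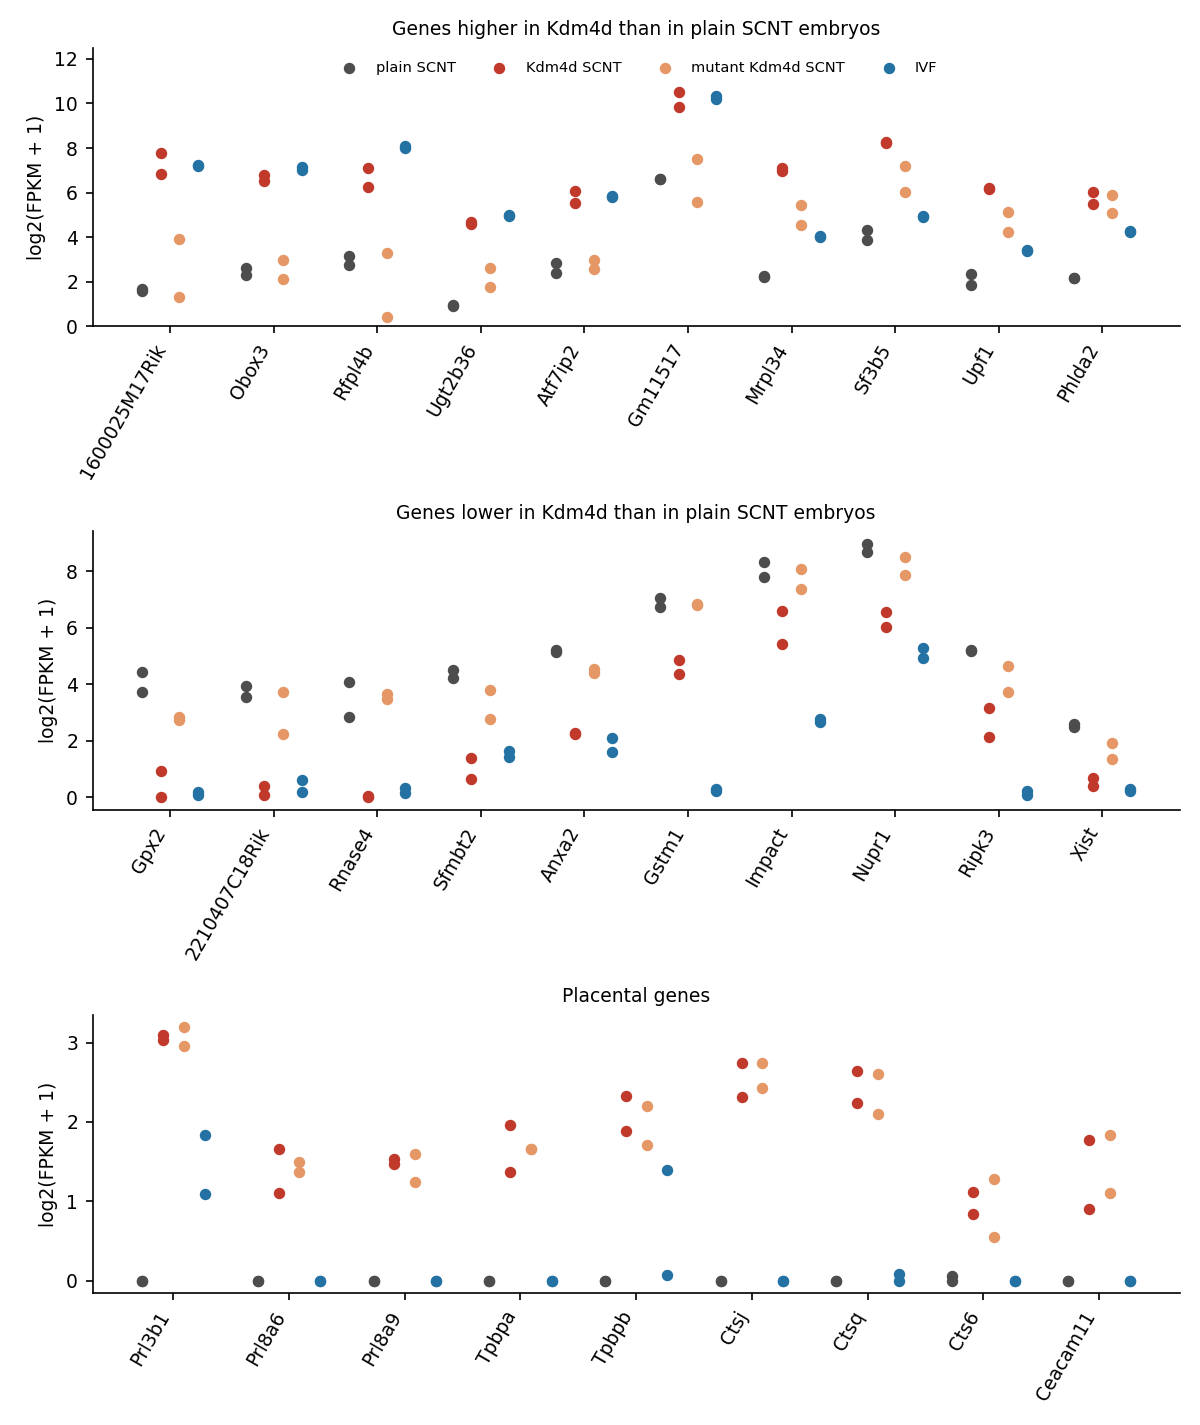
Level of 29 genes in each library of 2-cell embryos, as log2(FPKM + 1), one point per library and coloured by group. The upper panel holds genes higher in Kdm4d than in plain SCNT embryos (in Mrpl34, Sf3b5, Upf1 and Phlda2 the mutant libraries are raised too), the middle panel genes lower in Kdm4d embryos, and the lower panel placental genes that are at or near 0 in plain SCNT libraries and above 0 in Kdm4d and mutant libraries.

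Transcripts typical of the 2-cell stage were higher in Kdm4d embryos. Of 46 listed in the table, 38 passed the filter on low values, 34 of these were higher and 0 lower in Kdm4d embryos, and the median log2 difference was 1.65, against 16.8% higher and a median of -0.02 over all genes tested. Against the mutant group 31 were higher and 0 lower (10.8% and 5.91% of all genes), and against IVF embryos 1 was higher and 11 lower (10.9% and 2.18% of all genes). The count was 30 under either rescaling and 26 without either Kdm4d library. In 23 of the 38, over 30% of 50-base stretches occur in other genes, so reads may be shared between members and their single values are uncertain.

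Among the families, all 5 tested Zscan4 genes were higher, and 1 was left higher when a mean of 5 FPKM was required. Zscan4d, known for a role in telomere maintenance and with 49.1% of its stretches shared, went from 0.228 and 0.898 to 21.2 and 9.61 FPKM (3.33, SE 0.38, adjusted p = 9.32e-05), with 41.4 and 36.5 in IVF libraries, and was lower than in IVF embryos (log2 difference -1.38, SE 0.36, adjusted p = 0.0251). The oocyte homeobox family had 5 of 6 members higher (83.3%, beside 16.8% of all genes). Its summed level was 2136 and 2141 FPKM in IVF 1-cell and 1635 and 1671 in IVF 2-cell libraries. Transcripts of this family were thus present before the 2-cell stage. Obox6 (chromosome 7, 16418599 to 16425028) went from 128 and 137 to 576.7 and 1080.0 FPKM (2.57, SE 0.37, adjusted p = 0.000367), beside 696 and 714 in IVF and 63.7 and 183 in mutant libraries, so that the Kdm4d libraries spanned the IVF level. Obox3, with 26.8% of its stretches shared, went from 3.88 and 5.06 to 90.4 and 110.5 FPKM. In the PRAME family on chromosome 4, 16 of 26 were higher (61.5%) and 0 lower, but 13 and 3 after quantile normalization and 12 and 1 after median-ratio scaling. Against the mutant group 12 were higher and 5 lower. The family's summed level was 7795 and 7610 FPKM in IVF 1-cell and 2631 and 2442 in IVF 2-cell libraries, so it too was present earlier. Gm13078 of that family went from 0.785 and 2.59 to 108 and 133 FPKM, beside 186 and 162 in IVF libraries. The eIF1A-like genes (7 of 7 higher, 6 after median-ratio scaling) and Tdpoz genes (6 of 7 higher, 3 after median-ratio scaling) share up to 96.7% and 90.4% of their stretches and are given as counts. Without Kdm4d replicate 1 these counts were 4 and 3.

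Some transcripts of fertilised embryos stayed far below their IVF level although they rose. 1700013H16Rik (chromosome X, 51046078 to 51061008) went from 0.0443 and 0.0207 to 8.72 and 4.34 FPKM (2.80, SE 0.27, adjusted p = 3.79e-05), while IVF libraries had 135 and 154 and mutant libraries were at 0. The ribosomal protein paralogue Rpl10l went from 0.496 and 0.928 to 4.46 and 4.54 FPKM (1.69, SE 0.26, adjusted p = 0.000575), with 50.6 and 45.7 in IVF libraries. Rpl39l, another such paralogue, went from 2.37 and 2.21 to 13.4 and 5.88 FPKM (1.60, SE 0.28, adjusted p = 0.00134), with 162 and 161 in IVF and 10.2 and 5.28 in mutant libraries. The Kdm4d libraries lay above both plain SCNT libraries in each, and limma called them lower than IVF embryos by 4.33, 3.16 and 4.03 on the log2 scale.

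Of 36 candidate regulators of genome activation, 20 were higher and 0 lower, but 14 and 7 after quantile normalization and 12 and 0 without Kdm4d replicate 2. The share higher was 55.6%, beside 16.8% of all genes. Dppa3 (chromosome 6, 122576442 to 122580289), a maternal factor that protects the maternal genome from demethylation, stood at 1594 and 1424 FPKM in plain SCNT and 5301 and 6259 in Kdm4d libraries (1.93, SE 0.20, adjusted p = 5.35e-05). IVF libraries had 5891 and 6158 and mutant libraries 3375 and 2136, so the Kdm4d libraries lay on either side of the IVF libraries and above the others, but the call was lost after quantile normalization (adjusted p = 0.295). Klf5, a Krüppel-like factor of early embryos, went from 0.491 and 1.097 to 9.23 and 5.59 FPKM (2.21, SE 0.32, adjusted p = 0.00036), with 2.35 and 5.37 in mutant and 1.23 and 1.81 in IVF libraries, and its Kdm4d and mutant groups were not called different (adjusted p = 0.186).

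Of 27 methyltransferases and readers of H3K9 methylation, 10 were higher and 1 was lower (37.0% and 3.70%, beside 16.8% and 11.8% of all genes). These counts were 5 and 4 after median-ratio scaling and 4 and 0 without Kdm4d replicate 2. Atf7ip2 (chromosome 16, 10192999 to 10243144), a relative of the Setdb1 partner Atf7ip, had the largest rise of them, from 4.31 and 6.07 to 45.6 and 65.3 FPKM (3.18, SE 0.24, adjusted p = 8.04e-06). IVF libraries had 57.3 and 55.3 and mutant libraries 4.88 and 6.92, so the Kdm4d libraries stood apart from plain SCNT and mutant libraries and around the IVF level. Pphln1, a subunit of the HUSH silencing complex, went from 15.2 and 14.8 to 40.2 and 58.5 FPKM (1.63, SE 0.23, adjusted p = 0.00034), with 39.6 and 33.6 in IVF libraries. Ehmt2, the H3K9 dimethyltransferase G9a, went from 1.12 and 1.37 to 5.51 and 5.34 FPKM (1.52, SE 0.26, adjusted p = 0.00124), with 3.52 and 4.61 in mutant and 0.547 and 0.452 in IVF libraries. Both mutant libraries of Ehmt2 also lay above both plain SCNT libraries.

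Among 14 demethylases of H3K9, Kdm4d was the member called higher, and 2 were called lower. The share lower, 14.3%, was near the 11.8% of all genes. Phf8 fell from 8.26 and 7.87 to 3.904 and 2.67 FPKM (-1.09, SE 0.21, adjusted p = 0.00246). Jmjd1c fell from 6.899 and 5.77 to 2.602 and 2.35 FPKM (-1.07, SE 0.25, adjusted p = 0.00656). Both calls were lost without Kdm4d replicate 2 (adjusted p = 0.0511 and 0.068). Of 8 demethylases of H3K4 and H3K27, 4 were higher (50.0%, beside 16.8% of all genes) and 0 lower, with 1 higher without either Kdm4d library. Kdm6b, which acts on H3K27, went from 3.53 and 5.505 to 31.9 and 14.6 FPKM (2.06, SE 0.48, adjusted p = 0.00658), with 23.98 and 32.04 in mutant and 3.84 and 3.75 in IVF libraries, and lost its call without Kdm4d replicate 1 (adjusted p = 0.107). The list of 16 DNA methylation genes had 2 higher and 3 lower members (18.8% lower, beside 11.8% of all genes), with 0 and 6 after quantile normalization and 2 and 6 after median-ratio scaling. Of 16 histone deacetylases 5 were higher and 2 lower (31.2% higher, beside 16.8% of all genes), but 2 and 4 after median-ratio scaling. Without Kdm4d replicate 1 these were 2 and 0, and 2 and 1, and without Kdm4d replicate 2 they were 1 and 0 for both lists.

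Of 91 ribosome biogenesis genes tested, 48 were higher and 0 lower (median log2 difference 0.85), with 27 and 4 after quantile normalization, 37 and 2 after median-ratio scaling and 24 and 0 without Kdm4d replicate 2. The share higher was 52.75%, beside 16.8% of all genes. Imp3 (chromosome 9, 56785307 to 56786205), of the U3 small nucleolar ribonucleoprotein, went from 9.71 and 8.68 to 53.8 and 70.7 FPKM (2.62, SE 0.30, adjusted p = 9.32e-05), with 49.99 and 42.9 in IVF and 7.71 and 11.2 in mutant libraries. Utp3, of the same processome, went from 21.9 and 17.1 to 107 and 112 FPKM (2.44, SE 0.30, adjusted p = 0.000131), with 86.1 and 72.4 in IVF libraries. Both genes separated Kdm4d from plain SCNT and mutant libraries. Cytosolic ribosomal protein genes had 50 of 85 members higher and 0 lower (median 0.94), with 27 and 0 without Kdm4d replicate 2, and 44 of the 85 share over 30% of their stretches with other genes. Of these 85 genes 58.8% were higher, beside 16.8% of all genes. Translation initiation factors had 21 of 51 higher (41.2%, beside 16.8% of all genes) and 0 lower, but 15 and 6 after quantile normalization. Without Kdm4d replicate 2 the counts were 12 and 0. Eif2b4, a subunit of the exchange factor of eIF2, went from 7.76 and 8.02 to 31.96 and 45.2 FPKM (2.13, SE 0.29, adjusted p = 0.000243).

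Spliceosome genes had 31 of 69 members higher and 3 lower (44.9% and 4.35%, beside 16.8% and 11.8% of all genes), with a median of 0.54. These counts were 22 and 9 after quantile normalization and 13 and 1 without Kdm4d replicate 2. Snrpc, of the U1 particle, went from 18.7 and 30.3 to 160.0 and 223 FPKM (2.93, SE 0.40, adjusted p = 0.000243), with 67.1 and 53.8 in IVF and 53.8 and 77.8 in mutant libraries. Lsm3, of the U6 particle, went the other way, from 160.1 and 132 to 41.6 and 77.9 FPKM (-1.34, SE 0.25, adjusted p = 0.00173), toward 24.1 and 20.1 in IVF libraries.

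For 2 further lists the direction depended on the scaling. Proteasome genes had 19 of 48 higher and 5 lower (39.6% and 10.4%), but 7 and 8 after quantile normalization and 7 and 4 without Kdm4d replicate 2. The 19S regulatory subunit Psmd7 went from 37.8 and 36.1 to 121 and 159.9 FPKM (1.88, SE 0.26, adjusted p = 0.000293). The 19S ATPase Psmc6 fell from 42.3 and 44.7 to 16.5 and 20.5 FPKM (-1.20, SE 0.17, adjusted p = 0.000364), where IVF libraries had 20.2 and 19.5. Oxidative phosphorylation genes had 15 of 88 higher and 12 lower (17.05% and 13.6%, near the 16.8% and 11.8% of all genes), but 7 and 29 after quantile normalization and 7 and 25 after median-ratio scaling, 9 and 6 without Kdm4d replicate 1 and 6 and 6 without Kdm4d replicate 2. Ndufs6, of complex I, fell from 33.3 and 36.98 to 9.17 and 4.95 FPKM (-2.21, SE 0.30, adjusted p = 0.000259). Cox6a1, of complex IV, went from 29.99 and 28.9 to 155 and 117 FPKM (2.16, SE 0.43, adjusted p = 0.00277).

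**Figure D4:**
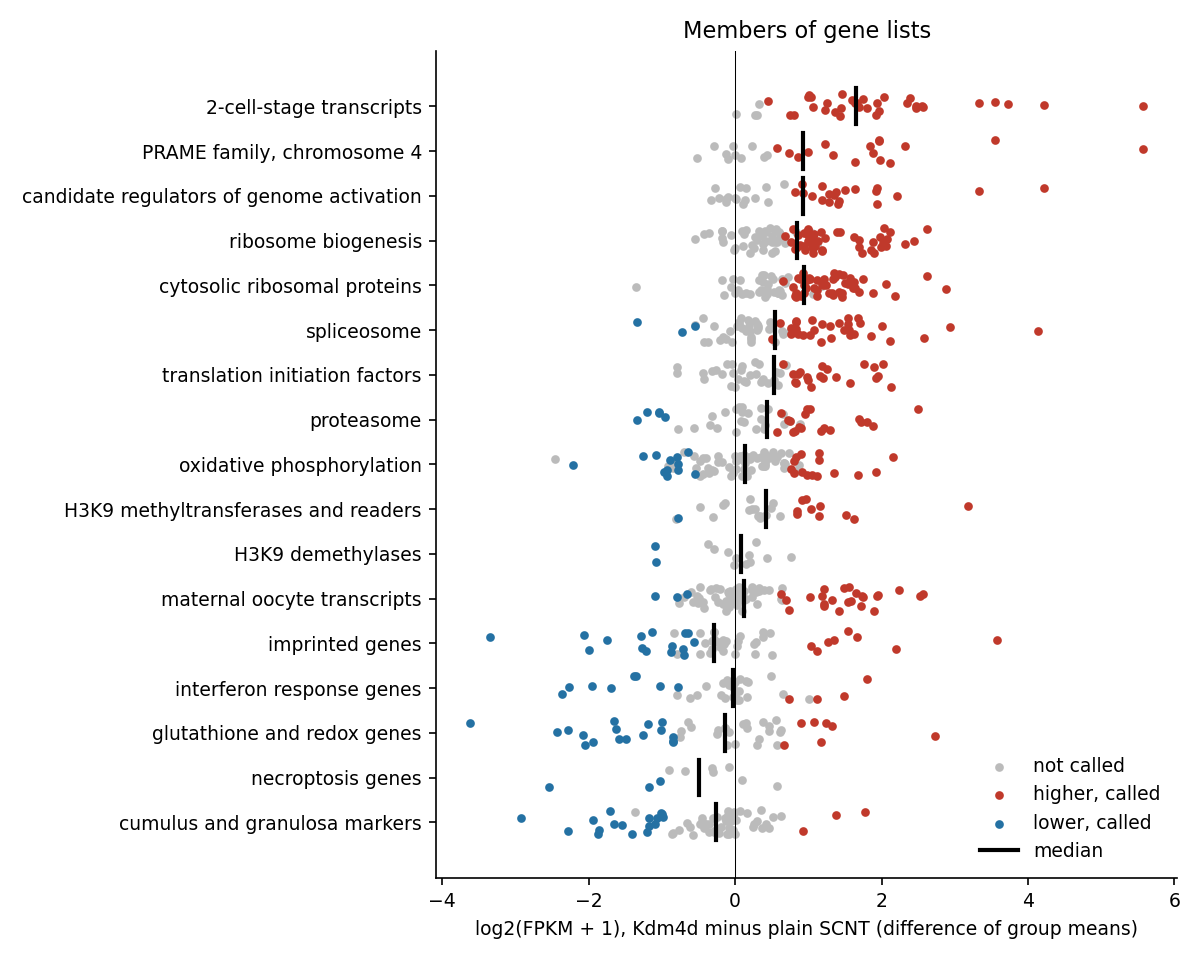
Log2 difference between Kdm4d and plain SCNT embryos for each tested member of 17 gene lists, with called members in red (higher) or blue (lower), others in grey and the list's median as a black bar; Kdm4d, at 11.61, is left out of its list. The 2-cell-stage list has its median at 1.65 and 0 members called lower, and the imprinted list has its median at -0.29.

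The 12 called genes that fell furthest were low in IVF embryos. Gpx2 (chromosome 12, 77893322 to 77896541), a glutathione peroxidase, fell from 20.6 and 12.2 to 0.879 and 0 FPKM (-3.62, SE 0.33, adjusted p = 2.91e-05), with 0.0546 and 0.134 in IVF and 5.57 and 6.12 in mutant libraries. 2210407C18Rik (chromosome 11, 58421708 to 58426994) fell from 14.2 and 10.8 to 0.0535 and 0.328 FPKM (-3.50, SE 0.36, adjusted p = 5.7e-05), with 0.1397 and 0.514 in IVF libraries. Rnase4 (chromosome 14, 51710752 to 51725826), a secreted ribonuclease, fell from 16 and 6.08 to 0.0274 and 0 FPKM (-3.44, SE 0.40, adjusted p = 0.000105), with 10.2 and 11.7 in mutant libraries. In each of the 12 largest falls the Kdm4d libraries lay below both plain SCNT libraries, and the differences from IVF embryos missed the threshold, at adjusted p between 0.0898 and 0.97.

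Anxa2 (chromosome 9, 69301490 to 69339592) fell from 34.4 and 36 to 3.74 and 3.82 FPKM (-2.92, SE 0.32, adjusted p = 7.63e-05), with 22.3 and 19.9 in mutant and 2.04 and 3.23 in IVF libraries. Anxa5 fell from 17.2 and 13.5 to 1.57 and 0.991 FPKM (-2.84, SE 0.25, adjusted p = 2.91e-05), with 12.8 and 17.6 in mutant libraries. Aqp3, a channel for water and glycerol, fell from 19.6 and 16.1 to 1.07 and 0.994 FPKM (-3.21, SE 0.26, adjusted p = 1.67e-05). Yod1, a deubiquitinating enzyme, fell from 13.1 and 12.2 to 0.3497 and 0.513 FPKM (-3.25, SE 0.35, adjusted p = 6.73e-05). For all 4 of these genes the mutant libraries lay above both Kdm4d libraries, and limma called the difference (adjusted p = 0.00451, 0.000605, 0.00236 and 0.00373).

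Of 47 glutathione and redox genes 17 were lower and 7 higher (36.2% and 14.9%, beside 11.8% and 16.8% of all genes). These counts were 19 and 2 under either rescaling, 11 and 1 without Kdm4d replicate 1 and 11 and 3 without Kdm4d replicate 2. Gstm1 (chromosome 3, 107815168 to 107820891), a glutathione transferase with 22.6% of its stretches shared, fell from 131 and 106 to 19.7 and 27.7 FPKM (-2.28, SE 0.26, adjusted p = 9.92e-05) and stayed above the 0.173 and 0.234 of IVF libraries. Gsta4, a transferase for lipid peroxidation products, fell from 73.1 and 60.3 to 14.04 and 19.6 FPKM (-1.94, SE 0.23, adjusted p = 0.000114), with 78.5 and 67.2 in mutant and 3.44 and 4.11 in IVF libraries. Gpx1, in contrast, went from 38.8 and 46.4 to 303 and 270.0 FPKM (2.72, SE 0.71, adjusted p = 0.0122), with 199.9 and 295 in mutant and 45.3 and 34.7 in IVF libraries, and lost its call without either Kdm4d library (adjusted p = 0.0827 and 0.0864).

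Interferon response genes had 8 of 35 members lower and 4 higher (22.9% and 11.4%, beside 11.8% and 16.8% of all genes). Without either Kdm4d library 2 were higher. Ddx58, the RNA sensor RIG-I, fell from 34.8 and 29.1 to 5.37 and 6.301 FPKM (-2.27, SE 0.20, adjusted p = 2.91e-05), with 16.1 and 20.7 in mutant and 1.096 and 0.827 in IVF libraries. Usp18, a protease for the ubiquitin-like Isg15, fell from 5.44 and 5.74 to 0.485 and 0.113 FPKM (-2.36, SE 0.31, adjusted p = 0.000199). Of 10 necroptosis genes 3 were lower and 0 higher. Their kinase Ripk3 fell from 36.5 and 34.98 to 8.03 and 3.37 FPKM (-2.55, SE 0.31, adjusted p = 0.000143), with 12.3 and 23.8 in mutant and 0.156 and 0.0418 in IVF libraries, so it ended between the plain SCNT and IVF levels.

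Stress genes moved both ways. Of 32 genes of the amino acid stress response, 7 were higher and 5 lower (21.9% and 15.6%, beside 16.8% and 11.8% of all genes). These counts were 3 and 8 under either rescaling and 3 and 4 without Kdm4d replicate 2. Nupr1, a small stress-response nuclear protein, fell from 501 and 413 to 64.7 and 92.9 FPKM (-2.54, SE 0.32, adjusted p = 0.000155), with 234 and 366 in mutant and 37.9 and 29.4 in IVF libraries. Slc38a2, a neutral amino acid transporter, fell from 33.6 and 29.9 to 8.84 and 5.21 FPKM (-2.07, SE 0.30, adjusted p = 0.000357), with 0.155 and 0.241 in IVF libraries. Ppp1r15a, which restores translation after stress, went up from 19.4 and 17.5 to 66.6 and 81.8 FPKM (1.95, SE 0.33, adjusted p = 0.00105), with 85.6 and 72.8 in IVF libraries. Heat shock proteins had 13 of 25 members higher and 3 lower, with 7 and 4 after quantile normalization and 7 and 1 without Kdm4d replicate 2. Of 28 genes of p53 and its targets 5 were higher and 3 lower (17.9% and 10.7%, near the 16.8% and 11.8% of all genes), but 1 and 7 after median-ratio scaling and 6 and 5 after quantile normalization. The counts were 3 and 0 without Kdm4d replicate 1 and 0 and 1 without Kdm4d replicate 2.

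Imprinted genes had 15 of 51 tested members lower and 8 higher (29.4% and 15.7%, beside 11.8% and 16.8% of all genes), with a median of -0.29. After median-ratio scaling 20 were lower and 8 higher. Without Kdm4d replicate 1 there were 8 lower and 7 higher, and without Kdm4d replicate 2 there were 7 lower and 5 higher. Sfmbt2 (chromosome 2, 10292078 to 10516880), a Polycomb-group gene expressed from the paternal allele, fell from 21.4 and 17.8 to 1.62 and 0.553 FPKM (-3.35, SE 0.36, adjusted p = 6.88e-05). Mutant libraries had 5.79 and 12.9 and IVF libraries 1.701 and 2.08, so the Kdm4d libraries were the lowest of the SCNT groups and close to IVF. Impact (chromosome 18, 13130761 to 13151457), which encodes an inhibitor of the kinase Gcn2, fell from 321 and 219.8 to 41.4 and 95.7 FPKM (-2.06, SE 0.32, adjusted p = 0.000611), with 5.76 and 5.36 in IVF libraries. Xist (chromosome X, 100655712 to 100678572), the RNA that silences an X chromosome, fell from 4.98 and 4.59 to 0.603 and 0.312 FPKM (-1.99, SE 0.24, adjusted p = 0.000139), with 1.54 and 2.74 in mutant and 0.222 and 0.165 in IVF libraries. Cumulus cells come from females, and the sex of the IVF embryos is not given here. The Xist levels of SCNT and IVF pools are therefore not like for like. Of 492 genes tested on the X chromosome 19.5% were higher and 10.4% lower, beside 16.8% and 11.8% of all genes. The other chromosomes ranged from 11.9% to 19.7% higher and from 7.82% to 16.1% lower.

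Of genes that act in the cell cycle, replication genes had 15 of 56 higher and 5 lower (26.8% and 8.93%, beside 16.8% and 11.8% of all genes). These counts were 11 and 13 after quantile normalization, 8 and 11 after median-ratio scaling and 8 and 4 without Kdm4d replicate 2. Gmnn (chromosome 13, 24843714 to 24853806), geminin, the inhibitor of replication licensing, went from 172 and 164 to 644 and 774 FPKM (2.07, SE 0.16, adjusted p = 1.13e-05), with 752 and 781 in IVF and 329 and 249 in mutant libraries. Rrm2, a subunit of ribonucleotide reductase, went from 49.2 and 46.7 to 273 and 318 FPKM (2.59, SE 0.26, adjusted p = 4.22e-05) and lay above the 108 and 108 of IVF libraries. Pola1, the catalytic subunit of DNA polymerase alpha, fell from 36.9 and 30.2 to 7.57 and 9.96 FPKM (-1.83, SE 0.24, adjusted p = 0.000198), with 13.6 and 13.3 in IVF libraries. Cell cycle and mitosis genes had 16 of 41 higher and 3 lower (39.0% and 7.32%), with 10 and 7 after quantile normalization and 11 and 1 without Kdm4d replicate 2. Cdk1, the kinase of mitotic entry, went from 73.7 and 67.4 to 178 and 311 FPKM (1.73, SE 0.23, adjusted p = 0.000211). Cyclin D2 (Ccnd2) fell from 6.75 and 7.62 to 1.04 and 1.25 FPKM (-1.93, SE 0.25, adjusted p = 0.000199).

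Among histone genes 5 of 29 were higher and 4 lower (17.2% and 13.8%, near the 16.8% and 11.8% of all genes), but 4 and 5 under either rescaling and 3 and 1 without Kdm4d replicate 2. The replacement histone gene H3f3b, which encodes H3.3, went from 149 and 183 to 781 and 705 FPKM (2.16, SE 0.23, adjusted p = 7e-05), with 736 and 627 in IVF and 604 and 336 in mutant libraries. The linker histone gene Hist1h1a fell from 227 and 218 to 75.3 and 45.2 FPKM (-1.91, SE 0.23, adjusted p = 0.000115), with 80.2 and 58.5 in mutant libraries, and its Kdm4d and mutant groups were not called different (adjusted p = 0.639).

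Of 29 pluripotency factors 13 were higher and 2 lower (44.8% and 6.90%, median 0.77), with 5 and 1 without Kdm4d replicate 2. Tcl1, a coactivator of the kinase Akt, stood at 709.8 and 817 FPKM in plain SCNT, 3143 and 1592 in Kdm4d, 3875 and 2410.0 in mutant and 997 and 948 in IVF libraries, so both overexpression groups were high (1.55, SE 0.26, adjusted p = 0.000898 against plain SCNT, lost after quantile normalization at adjusted p = 0.183). Trophectoderm and endoderm factors had 2 of 12 higher and 3 lower (16.7% and 25.0%, beside 16.8% and 11.8% of all genes). Their median was -0.23, and the counts were 1 and 0 without Kdm4d replicate 2. Tead4, a factor of trophectoderm fate, went from 2.77 and 3.83 to 10.4 and 21.7 FPKM (1.92, SE 0.30, adjusted p = 0.000677), with 2.26 and 4.195 in mutant and 4.86 and 4.07 in IVF libraries, and was the highest in the Kdm4d group without overlap. Krt18, a keratin of trophectoderm, fell from 6.79 and 5.68 to 2.93 and 1.52 FPKM (-1.20, SE 0.37, adjusted p = 0.0289), with 10.8 and 9.68 in mutant libraries, and its call was lost without Kdm4d replicate 2 (adjusted p = 0.275), plain SCNT replicate 1 (0.0949) or plain SCNT replicate 2 (0.0508). Numbered zinc finger genes had 55 of 305 members higher and 30 lower, shares of 18.03% and 9.84% near the 16.8% and 11.8% of all genes, and the direction turned after median-ratio scaling, with 36 higher and 60 lower. Without Kdm4d replicate 2 the counts were 23 and 9. Among them Zfp54 went from 7.32 and 7.58 to 91.04 and 77.1 FPKM (3.33, SE 0.25, adjusted p = 8.04e-06), with 101 and 110.2 in IVF and 11.5 and 12.3 in mutant libraries.

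Genes were also grouped by their course in the libraries of donor cells and IVF embryos, so levels in those libraries are a description. Those switched on after fertilisation (mean under 1 FPKM in IVF 1-cell and at least 5 in IVF 2-cell embryos) numbered 718, of which 355 were higher (49.4%) and 19 lower in Kdm4d than in plain SCNT embryos, with a median log2 difference of 0.87. The 4344 genes that also had at least 5 FPKM in IVF 2-cell embryos but at least 1 in IVF 1-cell embryos gave 33.3% higher and a median of 0.35. The median levels of the 718 genes were 8.07 and 7.01 FPKM in plain SCNT, 12.2 and 14.7 in Kdm4d, 4.71 and 7.23 in mutant and 11.99 and 11.7 in IVF libraries. The medians of both Kdm4d libraries lay above those of IVF libraries, and those of the plain SCNT and mutant libraries below. FPKM summed to 242752.5 and 235709.8 in IVF libraries, less than in Kdm4d libraries. Over all genes tested the median log2 difference between Kdm4d and IVF embryos was 0.183, but 0.036 after median-ratio scaling and -0.013 after quantile normalization. The part of this offset in the medians was not tested. At least 50% of the IVF 2-cell level was reached by 654 of the 718 genes in Kdm4d, 390 in plain SCNT and 319 in mutant embryos. Of the 4344 comparison genes it was reached by 4280, 3498 and 3452 in the same order. The count of 355 was 183 without Kdm4d replicate 2.

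Among these genes, Gm11517 (chromosome 11, 96656646 to 96659470) went from 98 and 97.98 to 927 and 1478 FPKM (3.56, SE 0.41, adjusted p = 9.62e-05), with 1306 and 1184 in IVF and 46.6 and 179.9 in mutant libraries. B020004C17Rik went from 124 and 134 to 569.6 and 901 FPKM (2.46, SE 0.22, adjusted p = 2.91e-05), with 755 and 705 in IVF and 93.6 and 138 in mutant libraries. In both the Kdm4d libraries reached from below to above the IVF libraries. The extracellular chaperone clusterin (Clu) was an opposite case, falling from 61.97 and 53.8 to 18.1 and 19.6 FPKM (-1.57, SE 0.28, adjusted p = 0.00144), with 6.58 and 6.26 in IVF libraries.

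The 1498 genes whose oocyte-stored transcripts were lost after fertilisation (at least 5 FPKM in IVF 1-cell embryos and at most 25% of that in IVF 2-cell embryos) had 103 members higher (6.88%) and 184 lower (12.3%), beside 16.8% and 11.8% of all genes. Median-ratio scaling gave 49 higher and 395 lower, quantile normalization 293 lower and the fit to the 4 libraries compared 65 higher and 69 lower. Without Kdm4d replicate 1 there were 49 higher, and without Kdm4d replicate 2 there were 49 lower. Without plain SCNT replicate 1 the counts were 68 and 115, and without plain SCNT replicate 2 there were 111 lower. Their median levels were 5.32 and 5.30 FPKM in plain SCNT, 5.06 and 4.10 in Kdm4d, 7.62 and 6.50 in mutant and 3.06 and 3.01 in IVF libraries. The Kdm4d medians lay below the plain SCNT medians and above those of IVF embryos. Mphosph6 (chromosome 8, 120315545 to 120325829), a cofactor of the RNA exosome, stood at 425 and 504 FPKM in plain SCNT, 2923 and 1843 in Kdm4d, 6297 and 1778 in mutant and 1158 and 1182 in IVF libraries (2.32, SE 0.35, adjusted p = 0.000461). The separate list of maternal oocyte transcripts had 24 of 80 members higher and 3 lower, with a median log2 difference of 0.115. Over all genes 16.8% were higher and 11.8% lower. Against the mutant group the direction turned, with 4 members higher and 10 lower and a median of -0.478, beside -0.095 over all genes. Against plain SCNT embryos the counts became 14 and 16 after quantile normalization and 19 and 14 after median-ratio scaling. The oocyte genes Gdf9, Bmp15 and Nlrp5 were not called, and the further defining oocyte marker Zp3 is not given here.

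**Figure D5:**
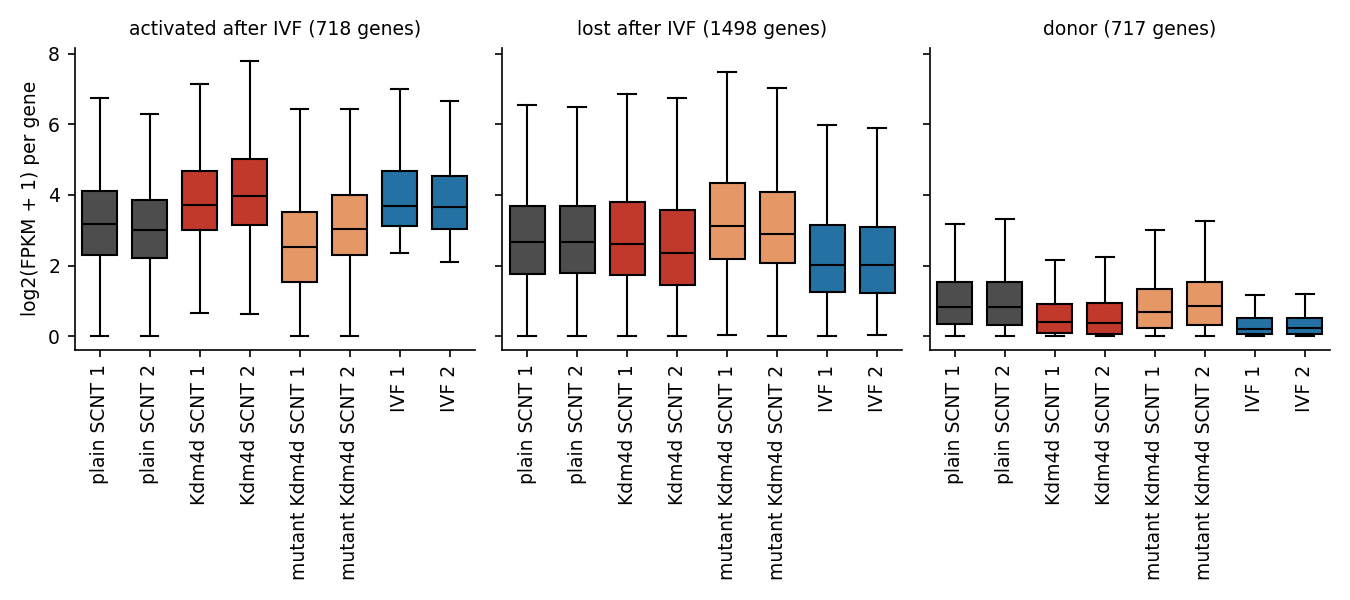
Levels of 3 gene classes in each library of 2-cell embryos, as log2(FPKM + 1) per gene, with boxes from the first to the third quartile, the median as a line and whiskers to the last value within 1.5 box lengths. For the 718 genes activated after IVF the Kdm4d libraries have medians of 12.2 and 14.7 FPKM, beside 8.07 and 7.01 in plain SCNT and 11.99 and 11.7 in IVF libraries.

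Of 717 genes of the donor cells, with at least 5 FPKM there and under 1 in both IVF stages, 166 were lower (23.2%) and 8 higher, and the 2250 genes that were under 1 FPKM in both IVF stages and under 5 in donor cells had 21.6% lower. Median levels of the 717 genes were 0.773 and 0.787 FPKM in plain SCNT, 0.321 and 0.294 in Kdm4d, 0.598 and 0.794 in mutant and 0.158 and 0.171 in IVF libraries. The Kdm4d libraries were also the shallower ones, and the part of depth in these low values was not tested. The 166 were 79 without Kdm4d replicate 1, 62 without Kdm4d replicate 2 and 110 after quantile normalization.

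Markers of cumulus and granulosa cells had 17 of 71 members lower and 3 higher (23.9% and 4.23%, beside 11.8% and 16.8% of all genes). The share lower was near the 21.6% of the 2250 genes under 1 FPKM in both IVF stages and under 5 in donor cells. The summed level of the list was 4563 and 3790 FPKM in plain SCNT, 5174 and 6349 in Kdm4d and 2278 and 3196 in mutant libraries. In IVF 2-cell libraries it was 3624 and 3393, and in donor libraries 33640 and 28050. The metallothioneins Mt1 and Mt2 made up 88.8% and 87.7% of it in plain SCNT, 94.3% in each Kdm4d library and 95.2% and 94.7% in IVF 2-cell libraries. Some of the defining markers are given here, without Star for cumulus cells, Pecam1 for endothelium, Ovgp1 for oviduct, Hba-a1 for red blood cells and Prm1 for sperm. Cyp11a1, which begins steroid synthesis, was at 1.05 and 1.25 FPKM in plain SCNT and 0.599 and 0.479 in Kdm4d libraries. Inha was at 0.108 and 0.0671 in plain SCNT and at 0 in both Kdm4d libraries, and Akr1c18 at 3.04 and 2.79 and at 0.784 and 0. Gja1 was higher, going from 35.9 and 34.2 to 94.95 and 158 FPKM (1.78, SE 0.21, adjusted p = 0.000124). Gja1 and Tnfaip6 of this list are also among the genes switched on after fertilisation, so their levels are no measure of cumulus cells alone. In pooled embryos, fewer cells of a type and less RNA per cell cannot be told apart. The defining immune marker Ptprc was at 0.274 and 0.0713 FPKM in plain SCNT and at 0 in both Kdm4d libraries. The immune list summed to 70.2 and 63.5 FPKM in plain SCNT and 52.2 and 52.8 in Kdm4d libraries. The summed oviduct markers were 77.8 and 68.9 FPKM in plain SCNT and 86.1 and 114 in Kdm4d libraries, and 2 of 5 tested were lower and 1 higher. Endothelial markers had 2 of 4 lower and 1 higher, with sums of 7.39 and 6.33 FPKM in plain SCNT and 5.997 and 2.97 in Kdm4d libraries. Red blood cell markers summed to 13.7 and 19.3 FPKM in plain SCNT, 4.96 and 3.803 in Kdm4d and 22.5 and 19.4 in mutant libraries, so the Kdm4d libraries were lower without overlap. Their 1 tested member, Hba-a2, stood at 13.4 and 18.8 FPKM in plain SCNT and 4.72 and 1.06 in Kdm4d libraries and was not called (-2.30, SE 1.31, adjusted p = 0.216), but passed the threshold in the fits to the 4 libraries compared and to the 2-cell groups. Of its stretches 88.5% are shared with other genes. Sperm markers summed to 28.1 and 32.4 FPKM in plain SCNT and 49.9 and 27.6 in Kdm4d libraries, and neither of the 2 tested was called.

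Some called genes lay side by side. Counting tested genes in order along each chromosome, 35 runs of at least 4 neighbours, with 159 of the 2266 genes called higher, were all higher. A further 6 runs, with 25 of the 1594 genes called lower, were all lower. The number of runs expected from 16.8% of genes called higher and 11.8% lower was not computed, so the runs are a description. The longest, of 8 genes with a median log2 difference of 1.74, lay on chromosome 12 from 106268827 to 106460947 and held Snhg10, Glrx5, Tcl1 and 5 Tcl1b genes, of which 3 share over 15% of their stretches with other genes. A run of 6 on chromosome 4 from 143484140 to 143752554 held PRAME genes, 5 of them over 15% shared. A run of 5 on chromosome 7 from 11379590 to 11987667 held the 5 Zscan4 genes, all over 15% shared. A run of 5 on the X chromosome from 7501402 to 7651886 held Eras, Hdac6, Gata1, Glod5 and the H3K9 methyltransferase gene Suv39h1. On chromosome 2, from 164618268 to 164737250, a run of 7 held Acot8, Zswim3, Zswim1, Neurl2, Ctsa, Pcif1 and Zfp335, with a median of 1.42 and with 4 of the 7 over 15% shared. A pair of runs of 5 on chromosome 13, from 27524722 to 27808606 and from 61002656 to 61304753, held the placental prolactin genes and the Tpbpa, Tpbpb, Ctsj, Ctsq and Cts6 genes described above. Apart from Prl7d1, these genes passed the filter on low values only with the overexpression libraries, where they are high. Family members that stayed low were not tested and so did not interrupt the order. Both runs thus follow from the filter and are no further evidence on the placental set. The longest run of lower genes, 5 on chromosome 16 from 92346246 to 92826311 with a median of -1.38, held Kcne1, Rcan1, 2410124H12Rik, Clic6 and Runx1.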

How the data were processed

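Deposited FPKM values of 14 libraries in 7 groups of 2 were used; the authors aligned reads with Novoalign and computed FPKM with Cufflinks 2.0.2 on mm9, per the submitters' processing notes. Per the labels' protocols, cDNA was amplified with the SMARTer Ultra Low kit and sequenced single-end. From 23697 rows, 804 short-RNA rows were left out and 630 rows that shared a symbol were summed, giving 22493 symbols. Genes with at least 1 FPKM in 2 or more libraries (13453) were tested on log2(FPKM + 1) with limma 3.58.1 in R 4.3.3, over all 7 groups, with a variance for each group, a mean-variance trend and Benjamini-Hochberg adjustment within each comparison at 0.05. A fold change on this scale understates that of low genes. The share of a gene's 50-base stretches found in other genes was computed for 13279 genes matched in GENCODE M21, and members of families above 15% or other genes above 30% were treated as uncertain. Read counts are not given, so intervals from depth were not computed. Named genes were Kdm4d, the 12 largest called rises and 12 largest called falls (mean of at least 5 FPKM in either group), up to 3 per direction of each list, and the 3 most abundant called per direction of each class. The members and lists were chosen with earlier results of these data known. Alternatives varied the scaling, variance, libraries fitted, pseudocount and filter, left out each library, or added a replicate block.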

Additional observations from a re-analysis of the deposited data

How the results depend on the processing

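Against plain SCNT embryos, higher and lower genes numbered 2266 and 1594. Median-ratio scaling gave 1489 and 2979, 1 variance for all groups gave 2488 lower, and a filter at a mean of 5 FPKM gave 735 lower. Leaving out 1 library gave between 1104 and 1915 higher and between 582 and 1194 lower. Against the mutant group (1447 and 795), 1 variance gave 2875 and 3023, and the filter gave 461 lower. The fit to the 4 libraries compared gave 0 and 0, with 3891 genes at an unadjusted p under 0.05. Leaving out 1 library gave 267 to 1264 higher and 151 to 640 lower, the lowest without mutant replicate 1. Against IVF embryos (1471 and 293), 1 variance gave 2233 and 498, the 4-library fit 104 and 36, quantile normalization 700 and 796, and median-ratio scaling 818 and 676. Lower genes there were 190 with a pseudocount of 0.1, 453 without a filter and 184 with the 5 FPKM filter. Leaving out 1 library gave 380 to 1274 higher and 99 to 222 lower, the lowest without Kdm4d replicate 2. The cause of these shifts was not tested. Genes activated after IVF (355 and 19) gave 235 higher and 12 lower with a pseudocount of 0.1. Lower genes among them were 7 at a limit of 10 FPKM, 31 with 1 variance, 37 after quantile normalization and 44 after median-ratio scaling. Leaving out 1 library gave 183 to 323 higher and 5 to 18 lower. Genes lost after IVF (103 and 184) gave 65 and 69 in the 4-library fit and 49 and 395 after median-ratio scaling. Lower genes among them were 280 with 1 variance, 293 after quantile normalization and 102 with a pseudocount of 10. Leaving out 1 library gave 49 to 92 higher and 49 to 148 lower. Donor genes (8 and 166) gave 4 and 83 at 10 FPKM, 13 and 110 after quantile normalization, 1 and 101 with a pseudocount of 10, and 0 and 31 with the 5 FPKM filter. Higher genes among them were 14 with 1 variance and 4 with median-ratio scaling or a pseudocount of 0.1. Leaving out 1 library gave 1 to 7 higher and 62 to 140 lower. The direction of Epcam reversed after quantile normalization, to -0.015 on the log2 scale. Of 206 named genes called, 82 lost the call under at least 1 setting, 64 of them without Kdm4d replicate 2. The labels do not say that replicate numbers pair libraries, and the deviations of same-numbered plain SCNT and Kdm4d libraries had a correlation of -0.249, and those of Kdm4d and mutant libraries one of 0.302. A replicate block gave 2325 and 1679 against plain SCNT, 1572 and 947 against the mutant and 1554 and 302 against IVF embryos, and the crossed block, added after seeing the data, gave 2334 and 1688 against plain SCNT. The settings applied to classes and lists, other than the 10 FPKM limit, were also chosen after seeing the data.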
